A study of Saccharomyces cerevisiae with 8 samples.

Results

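The genes described here encode the proteins of the cytosolic ribosome of budding yeast. They are all gene models of the deposited table whose locus carries a standard name beginning with RPL, RPS or RPP followed by a digit, without the RPP1 of RNase P. The rule found 137 genes among 6104 gene models, with 1092 listed ACA sites among 76330. Of these genes, 19 have no copy (154 sites), and 118 form 59 pairs of A and B copies (938 sites). The single-copy genes include RPL3, RPL5, RPL25, RPS3 and the stalk base RPP0, and the pairs include the acidic stalk proteins RPP1A, RPP1B, RPP2A and RPP2B.

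The ribosome has a small subunit, which reads the messenger RNA, and a large subunit, which joins amino acids, and its flexible lateral stalk recruits translation factors. Ribosomal protein messages are short, stable and among the most abundant in growing yeast, and their transcription drops when nutrients run out, as it does when cells enter meiosis. Many of these genes carry an intron, which most yeast genes lack, and many exist as a pair of copies left by an ancient genome duplication. N6-methyladenosine (m6A) is placed on yeast messages during meiosis by the methyltransferase Ime4. MazF, a bacterial endoribonuclease, cuts RNA before ACA and leaves the site whole where its first A carries m6A.

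Polyadenylated RNA came from diploid SK1 cells in which meiosis had been induced, grown in YPD at 30 °C per the labels. In the IME4-KO cells both IME4 copies were disrupted with HIS3 (ime4::HIS3/ime4::HIS3), whereas WT cells kept IME4. Both genotypes shared lys2/lys2, ho::LYS2/ho::LYS2 and ndt80::LEU2/ndt80::LEU2, so the factor that drives the exit from pachytene was disrupted in the WT cells too. An antibody against m6A was used to pull down RNA (IP), and RNA before that step served as input, with 2 biological replicates in each of 4 groups: IME4-KO IP, WT IP, IME4-KO input and WT input. Each value is a normalized cleavage efficiency, a fraction from 0 to 1 per ACA site and library. Higher was read as more cutting from the name of the quantity, since the sources used here do not state the direction.

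IME4 itself had values at 0 and 0 of its 27 listed sites in IME4-KO IP, against 16 and 24 in WT IP, and at 2 and 0 in IME4-KO input, against 21 and 23 in WT input. Of the 3 listed sites of NDT80, WT input replicate 2 had values at all 3, WT input replicate 1 at 2 and the other libraries at 1 or none, so these sites do not check its disruption. The libraries held values for 27723 to 62508 sites, and the read depth behind a value is unknown. The columns have nearly the same quantiles, with medians of 0.636 to 0.639, so a shift common to all sites of a library could not be seen. Replicates correlated at r = 0.955 to 0.992 over the 472 tested ribosomal protein sites.

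Ribosomal protein sites were measured more often than other sites in every library, and the difference between the genotypes ran opposite ways in the IP libraries. Of the listed ribosomal protein sites, 66.8% and 77.1% had a value in IME4-KO IP, against 50.9% and 65.4% in WT IP. Among all other sites the shares were 35.9% and 48.7% in IME4-KO IP, against 43.6% and 57.0% in WT IP. The IME4-KO libraries thus held more of the ribosomal protein sites than the WT libraries did without overlap, while for other sites the WT values lay higher and the ranges overlapped. In input the ribosomal protein shares were 97.0% and 96.6% in IME4-KO, against 84.2% and 88.5% in WT, beside 80.4% and 81.1% in IME4-KO and 59.1% and 81.8% in WT for all other sites. As a share of all measured sites, ribosomal protein sites made up 2.63% and 2.25% in IME4-KO IP, against 1.67% and 1.64% in WT IP. In input that share was 1.72% and 1.70% in IME4-KO, against 2.03% and 1.55% in WT, so in input the groups overlapped. The sources used here do not say why a listed site lacks a value in a library. Amount of message, recovery in the pulldown and depth cannot be told apart here, and these shares were not tested.

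**Figure D1:**
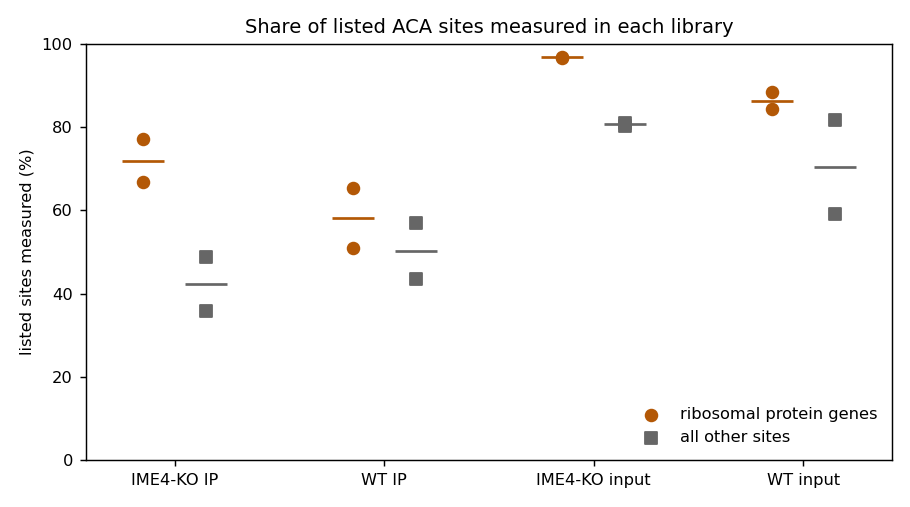
Percentage of listed ACA sites with a value in each library (points) and the mean of the 2 libraries (lines), for ribosomal protein genes and all other sites. In IP the ribosomal protein points are higher in IME4-KO (66.8% and 77.1%) than in WT (50.9% and 65.4%), whereas those of other sites lie lower in IME4-KO on average.

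The single-copy genes were better covered than the pairs in the IP libraries. Their sites had a value in 80.5% and 89.0% of cases in IME4-KO IP and in 64.3% and 74.7% in WT IP. For the sites of paired genes the shares were 64.5% and 75.2% in IME4-KO IP and 48.7% and 63.9% in WT IP. Values in all 8 libraries, which the tests need, existed at 86 of 154 single-copy sites (55.8%), at 386 of 938 sites of paired genes (41.2%) and at 16904 of 75238 other sites (22.5%). All 19 single-copy genes had at least 1 tested site, whereas 22 of the 118 paired genes had none, among them RPL40B, RPP2A, RPL16A and RPS4A. Results below on paired genes therefore rest on 96 of them, and 472 sites in 115 ribosomal protein genes were tested in all. Sites of 1 gene share their message and are not replicates, so no test between the 2 classes was made.

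A large share of ribosomal protein sites was hardly cut in any library. The mean efficiency over the 8 libraries was below 0.1 at 140 of 472 ribosomal protein sites (29.7%), against 2191 of 16904 other sites (13.0%). All 8 values were below 0.1 at 86 ribosomal protein sites (18.2%) and at 6.09% of other sites. The single-copy genes and the pairs had nearly the same share of low means, 30.2% and 29.5%. The median efficiency of tested ribosomal protein sites was 0.488 and 0.456 in IME4-KO IP, against 0.493 and 0.4997 in WT IP. It lay below that of other sites, which was 0.659 to 0.669 in the 4 IP libraries. This held for paired genes, with 0.484 and 0.445 in IME4-KO IP and 0.466 and 0.472 in WT IP. Single-copy genes had 0.576 and 0.582 in IME4-KO IP, but 0.680 and 0.722 in WT IP, above the 0.668 and 0.669 of other sites.

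The hardly cut sites lay mostly in the first 3 of the 5 equal parts into which each gene model was divided, from its start to its last listed site. In the second part and the third part the mean was below 0.1 at 47.3% and 56.8% of ribosomal protein sites, against 16.4% and 13.8% of other sites. In the last part the shares were 11.7% of 162 ribosomal protein sites and 11.2% of 6371 other sites. The median of the site means was 0.129 in the second part and 0.0655 in the third part of ribosomal protein genes, against 0.639 and 0.657 for other sites, and 0.707 in the last part, against 0.675. The classes were apart in the third part, with a median of 0.706 at 15 single-copy sites and 0.0524 at 73 sites of paired genes. There 40.0% and 60.3% of the means were below 0.1. In the second part the medians were 0.0641 at 17 single-copy sites and 0.131 at 57 sites of paired genes.

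**Figure D2:**
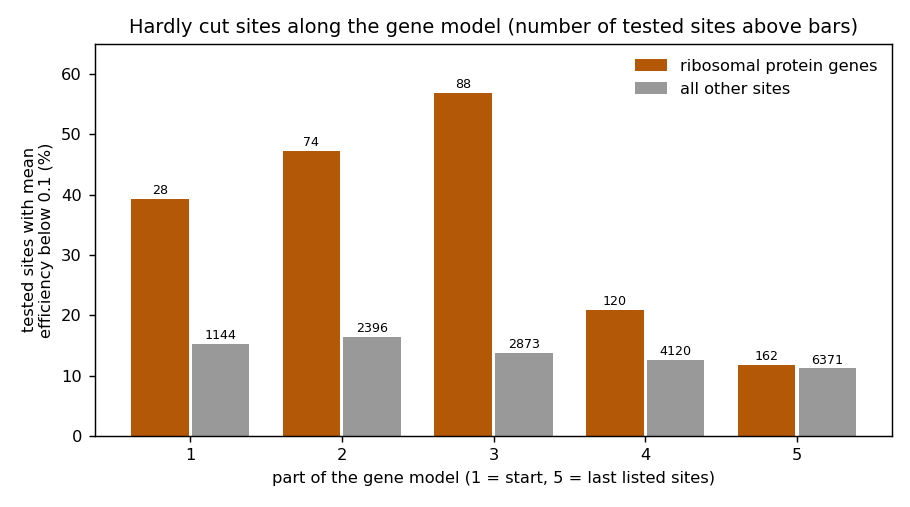
Percentage of tested sites whose mean efficiency over the 8 libraries was below 0.1, in each of 5 equal parts of the gene model, for ribosomal protein genes and all other sites; numbers above bars are tested sites. The share is 56.8% in the third part of ribosomal protein genes, against 13.8% for other sites, and 11.7% against 11.2% in the last part.

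Hardly cut sites came in runs. For runs all listed sites were used, tested or not, each with its mean over the libraries that held a value. At least 3 neighbouring listed sites with a mean below 0.1 were found in 36 of 135 ribosomal protein genes with 3 or more sites (26.7%). Among other models there were 103 of 5405 (1.91%). The longest runs had 8 sites in RPL23A (+215 to +651) and RPS11B (+305 to +687). An offset such as +215 is the distance in nucleotides to the beginning of the model, introns included. Only 1 of 13 listed sites of RPL23A and 1 of 15 of RPS11B were tested. These 2 runs thus rest mostly on sites that lack a value in some library. Runs of 7 sites lay in RPL19B, RPS0A and RPL25, and runs of 6 in 4 further paired genes, among them RPS0B and RPL19A, the other copies of RPS0A and RPL19B. Among single-copy genes, 2 of 6 that carry an intron had such a run (RPL25 and RPL28), against none of 13 without one, where the longest run was 2. The mean was below 0.1 at 14 of 30 tested sites (46.7%) of single-copy genes with an intron and at 12 of 56 (21.4%) of those without. Of these 14 sites, 7 were the run in RPL25 and 4 that in RPL28, so the share of tested sites rests mostly on 2 genes. RPL30 and RPS13, which also carry an intron, had stretches without WT IP values that were therefore not tested. The highest input value was 0.0354 at RPL30 +163 to +380 and 0.140 at RPS13 +419 to +707. In IME4-KO IP the highest values there were 0.345 and 0.452. The intron status is textbook knowledge, looked up after the values were seen, and the table does not say which sites lie in introns. Whether an intron plays a part in the low values was not tested.

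RPL25 is an example. The protein it encodes sits at the exit of the tunnel through which the new chain leaves the large subunit. Its first listed site, +128, had 0.978 and 0.972 in IME4-KO IP, 0.909 and 0.943 in WT IP, 0.988 and 0.995 in IME4-KO input and 0.948 and 0.947 in WT input. The next 7 sites, from +225 to +536, did not exceed 0.0473 in any library, and most values were below 0.01. From +720 to +896 the values were high again, between 0.334 and 1. RPL28, known for mutations that give resistance to cycloheximide, had 4 such sites from +182 to +692, with no value above 0.0937, before 2 well cut sites at +970 and +1121.

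**Figure D3:**
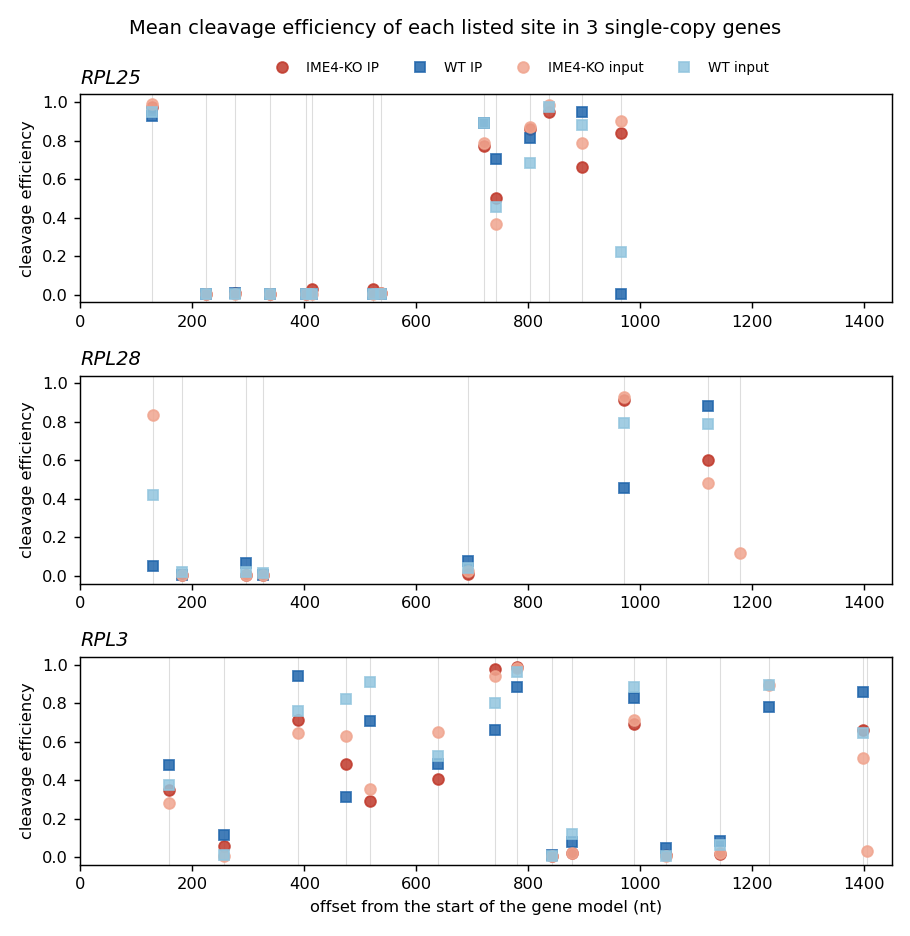
Mean cleavage efficiency of the libraries with a value in each of the 4 groups (points) at every listed site of 3 single-copy genes, against the offset from the start of the gene model in nt. RPL25 has 7 sites near 0 between +225 and +536 in all groups and a last site, +965, near 0 in WT IP alone; RPL28 has 4 sites near 0, and RPL3 shows no comparable stretch.

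The comparison of IME4-KO IP with WT IP asks at which sites cutting differed between the genotypes in the RNA held by the antibody. Whether the antibody held the same part of each message in both genotypes was not tested. A site was called where limma's adjusted p over all 17376 tested sites was below 0.05. Of the 472 ribosomal protein sites, 68 in 49 genes rose (14.4%) and 114 in 72 genes fell (24.2%) in IME4-KO IP, and 290 were not called. Over all tested sites 17% were called higher and 24.3% lower, so these shares were near the background. The median difference, IME4-KO minus WT, was -0.006 at ribosomal protein sites and -0.009 over all sites. The 2 libraries of each genotype did not overlap at 349 of 472 sites (73.9%, background 72.5%). Changes of at least 0.5 were called higher at 12 ribosomal protein sites (2.54%, background 4.74%) and lower at 13 (2.75%, background 2.7%). A site near 0 in every library can hardly move: with a mean of at least 0.1, 62 of 332 ribosomal protein sites were called higher (18.7%, background 19%) and 103 lower (31.0%, background 26.6%).

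Single-copy genes were called lower more often than higher. Of their 86 tested sites, 4 in 4 genes rose (4.65%) and 26 in 14 genes fell (30.2%) in IME4-KO IP, with a median difference of -0.056. Of the 386 tested sites of paired genes, 64 in 45 genes rose (16.6%) and 88 in 58 genes fell (22.8%), with a median difference of -0.001. Among all tested sites 17% were called higher and 24.3% lower, so more lower than higher calls were not particular to single-copy genes. The count of 4 became 10 when sites measured in at least 6 libraries were fitted, and 7 without WT IP replicate 2. With the replicate number blocked within each genotype, single-copy sites gave 4 higher and 16 lower calls, and sites of paired genes 52 and 57. In 10 single-copy genes sites were called lower only, in 4 (RPL25, RPL28, RPL3 and RPS31) both ways, and in the remaining 5 (RPL30, RPL39, RPL5, RPP0 and RPS12) none was called. No single-copy gene had only higher calls, whereas 16 paired genes had only higher calls, 29 only lower calls and 29 both. Of the 26 lower calls in single-copy genes, 12 were among the 23 tested sites of the fourth part of the models and 9 among the 25 of the fifth, while the first part had 1 of 6, the second 3 of 17 and the third 1 of 15. Over all tested sites the shares called lower were 23.2%, 27.0%, 24.3%, 25.5% and 22.8% from the first part to the fifth. Differences between parts were not tested.

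By subunit, 47 of 292 large-subunit sites rose and 67 fell (16.1% and 22.9%), and 20 of 170 small-subunit sites rose and 45 fell (11.8% and 26.5%), against 17% and 24.3% of all tested sites. The difference between the subunits was not tested. At the last listed site of a gene, 16 of 50 ribosomal protein sites were called higher (32%, background 27.3%) and 8 lower (16%, background 15.4%). In paired genes 15 of 43 last sites were called higher and 5 lower, and in single-copy genes 1 of 7 was called higher and 3 lower.

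RPL25 +965, the last listed site of that gene (locus YOL127W, chromosome 15, position 85455, plus strand, in the coordinates of the deposited table, whose build the sources used here do not give), had the largest rise of all named sites. It had 0.784 and 0.892 in IME4-KO IP, against 0.00298 and 0.0062 in WT IP, and 0.912 and 0.894 in IME4-KO input, against 0.229 and 0.213 in WT input. The site was thus well cut in all 4 IME4-KO libraries and hardly cut in WT IP, with WT input between. The difference was 0.833 ± 0.039 (SE) in IP (limma, adjusted p = 0.000101) and 0.682 ± 0.039 in input (adjusted p = 0.00036). Of the other 12 tested sites of the gene, +743 fell by 0.201 and +896 by 0.283 in IP, and 10 were not called.

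The other 3 single-copy sites that rose in IME4-KO IP had smaller differences. RPL28 +970 (YGL103W, chromosome 7, position 317141, plus strand) had 0.907 and 0.920 in IME4-KO IP, against 0.476 and 0.439 in WT IP, and 0.919 and 0.944 in IME4-KO input, against 0.816 and 0.777 in WT input. Its difference in IP was 0.456 ± 0.027 (limma, adjusted p = 0.000191). RPL3 encodes a large-subunit protein that reaches towards the peptidyl transferase centre. Its site +741 had 0.967 and 0.989 in IME4-KO IP, against 0.737 and 0.579 in WT IP, a difference of 0.320 ± 0.064 (limma, adjusted p = 0.0109) that was no longer called without IME4-KO IP replicate 2 (adjusted p = 0.0544). RPS31, whose protein is made as a fusion with ubiquitin that is split off afterwards, had 0.920 and 0.947 at +212 in IME4-KO IP, against 0.653 and 0.745 in WT IP. The groups did not overlap at any of these sites.

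Among the single-copy sites that fell, RPS15 +590 had the largest change. RPS15, a small-subunit protein needed for export of the pre-40S particle from the nucleus, is encoded by YOL040C, and the site (chromosome 15, position 253964, minus strand) is the last one listed. It had 0.152 and 0.116 in IME4-KO IP, against 0.813 and 0.733 in WT IP, and 0.284 and 0.208 in IME4-KO input, against 0.407 and 0.285 in WT input. The IP libraries of the genotypes were far apart, whereas those of input nearly touched. The difference in IP was -0.640 ± 0.054 (limma, adjusted p = 0.000534). RPS20 +410 (YHL015W, chromosome 8, position 76028, plus strand), in a gene for a protein of the small-subunit head, had 0.439 and 0.389 in IME4-KO IP, against 0.943 and 0.948 in WT IP, and 0.444 and 0.468 in IME4-KO input, against 0.863 and 0.799 in WT input. Here both kinds of RNA separated the genotypes, and the IP difference was -0.532 ± 0.032 (limma, adjusted p = 0.000198).

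RPL38, a large-subunit protein, was also cut less without IME4. Its site +376 had 0.126 and 0.244 in IME4-KO IP, against 0.674 and 0.769 in WT IP. Its call (difference -0.536, limma, adjusted p = 0.0112) ended without IME4-KO IP replicate 1 (0.0615) or WT IP replicate 2 (0.0594).

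RPL3 and RPS31 held sites that moved in opposite directions within 1 message. RPL3 +518 had 0.281 and 0.298 in IME4-KO IP, against 0.587 and 0.829 in WT IP, and 0.344 and 0.368 in IME4-KO input, against 0.908 and 0.914 in WT input. This site fell by 0.419 in IP and by 0.555 in input (limma, adjusted p = 0.00742 and 0.00377), whereas +741 rose in IP. Of the other 8 tested sites of RPL3, +1142 was called lower by 0.067 (adjusted p = 0.0486) and 7 were not called, among them 4 with a mean below 0.1. In RPS31, +141 had 0.550 and 0.332 in IME4-KO IP, against 0.956 and 0.950 in WT IP, a short way upstream of +212. The 2 remaining sites of RPS31, +467 and +554, were called lower (adjusted p = 0.0326 and 0.0343), and both calls ended when the 4 IP libraries were fitted alone (0.109 and 0.105). RPS15 likewise had lower calls at +385 (-0.164) and +439 (-0.154) beside +590, while +129, +199 and +517 differed by less than 0.05.

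**Figure D4:**
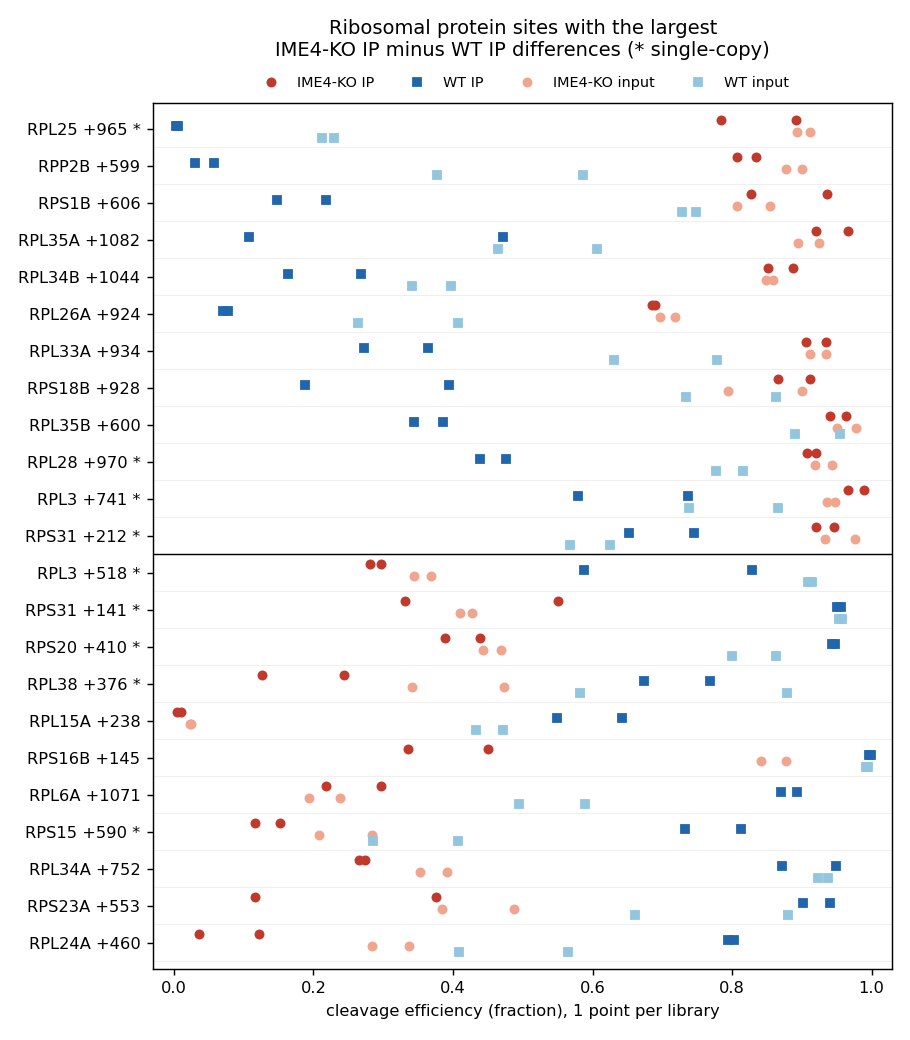
Cleavage efficiency in each library (points) at the ribosomal protein sites with the largest called differences between IME4-KO IP and WT IP, in each direction and gene class; asterisks mark single-copy genes. At all sites above the black line the IME4-KO IP points lie right of the WT IP points, and below it they lie left; at RPL25 +965 WT IP lies near 0 and the other 3 groups do not.

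Among the paired genes the largest rise was in the stalk. RPP2B encodes one of the acidic P2 proteins at the tip of the stalk, and its last site +599 (YDR382W, chromosome 4, position 1231389, plus strand) had 0.808 and 0.835 in IME4-KO IP, against 0.0305 and 0.0574 in WT IP, and 0.901 and 0.877 in IME4-KO input, against 0.587 and 0.378 in WT input. Cutting was thus nearly absent in WT IP and intermediate in WT input. The difference was 0.777 ± 0.067 in IP (limma, adjusted p = 0.000554) and 0.406 ± 0.067 in input (0.00725). The input call ended without IME4-KO input replicate 1 (0.0504). RPP2B +458 fell by 0.288 in IP, with 0.678 and 0.694 in IME4-KO against 0.997 and 0.952 in WT.

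The other stalk genes showed fewer calls. RPP1A +445 had 0.0957 and 0.141 in IME4-KO IP, against 0.503 and 0.428 in WT IP, a difference of -0.347 ± 0.041 (limma, adjusted p = 0.00161). RPP1B +746 had 0.739 and 0.528 in IME4-KO IP, against 0.840 and 0.888 in WT IP, just short of a call (0.0509). RPP0, which anchors the P1 and P2 proteins to the ribosome, had no call among 3 tested sites in IP. Its last site +1064 was called lower in input, with 0.535 and 0.493 in IME4-KO, against 0.931 and 0.897 in WT, while the IP values, 0.698 and 0.810 in IME4-KO and 0.779 and 0.719 in WT, overlapped. RPP2A had 3 listed sites and none tested. Of the 10 tested stalk sites, 1 rose and 2 fell in IP (10% and 20%), against 17% and 24.3% of all tested sites. The paired ubiquitin fusion RPL40A fell at +859, with 0.579 and 0.576 in IME4-KO IP, against 0.997 and 0.958 in WT IP, while +934 and +995 were not called and RPL40B had no tested site.

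Further paired genes rose by 0.59 to 0.70 at their leading sites. RPL35A +1082, in a gene for a protein at the tunnel exit, had 0.966 and 0.920 in IME4-KO IP, against 0.107 and 0.471 in WT IP, so the WT libraries differed widely between themselves. RPL26A, whose protein also lies near the tunnel exit, had at +924 0.685 and 0.689 in IME4-KO IP, against 0.0781 and 0.0701 in WT IP, and 0.697 and 0.718 in IME4-KO input, against 0.406 and 0.264 in WT input. RPL34B +1044 had 0.851 and 0.887 in IME4-KO IP, against 0.163 and 0.268 in WT IP. At RPL26A and RPL34B the WT inputs lay between WT IP and the 4 IME4-KO libraries. RPL33A +934 (0.603 ± 0.057) and RPS18B +928 (0.598 ± 0.082) rose by similar amounts.

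RPS1B +606 and RPL35B +600 separated the genotypes in IP far more than in input. RPS1B +606 had 0.937 and 0.827 in IME4-KO IP, against 0.148 and 0.218 in WT IP, but 0.807 and 0.854 in IME4-KO input, against 0.728 and 0.748 in WT input. RPL35B +600 had 0.940 and 0.963 in IME4-KO IP, against 0.385 and 0.344 in WT IP, and 0.951 and 0.978 in IME4-KO input, against 0.890 and 0.955 in WT input. Of all 8 libraries, only the 2 of WT IP were low at either site.

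Of the paired sites that fell, RPL24A +460 had the largest difference, -0.720 ± 0.059 (limma, adjusted p = 0.000478). RPL24A joins the large subunit late, in the cytoplasm, and the site (YGL031C, chromosome 7, position 447166, minus strand) had 0.0354 and 0.122 in IME4-KO IP, against 0.794 and 0.803 in WT IP, and 0.283 and 0.336 in IME4-KO input, against 0.408 and 0.565 in WT input. RPL15A +238 had 0.00974 and 0.00406 in IME4-KO IP, against 0.549 and 0.642 in WT IP, and 0.0247 and 0.0232 in IME4-KO input, against 0.433 and 0.471 in WT input. This site was all but uncut in every IME4-KO library and cut in part in every WT library.

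RPS16B +145 was cut less in IME4-KO IP than in any other group. It had 0.336 and 0.450 in IME4-KO IP, against 0.997 and 1 in WT IP, and 0.842 and 0.878 in IME4-KO input, against 0.992 and 0.994 in WT input, where the WT values sat at or near the highest value of their libraries. RPL34A +752 had 0.274 and 0.265 in IME4-KO IP, against 0.872 and 0.949 in WT IP, and RPL6A +1071 had 0.218 and 0.296 in IME4-KO IP, against 0.894 and 0.870 in WT IP. RPS23A, a protein of the decoding site, had 0.116 and 0.376 at +553 in IME4-KO IP, against 0.940 and 0.902 in WT IP.

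Before pulldown, fewer ribosomal protein sites were called. In IME4-KO input 56 of 472 rose relative to WT input (11.9%) and 86 fell (18.2%), against 15.6% and 16.6% of all tested sites. Changes of at least 0.5 were called higher at 3 sites (0.636%, background 1.61%) and lower at 9 (1.91%, background 1.47%), and the genotypes did not overlap at 372 sites (78.8%, background 75.5%). The called sites numbered 8 higher and 16 lower among the 86 single-copy sites, and 48 higher and 70 lower among the 386 paired ones. Without IME4-KO input replicate 1 they were 25 higher and 39 lower, and without replicate 2 they were 27 and 34, so they rest on both of these libraries. IP and input calls overlapped in part. Of the 68 sites called higher in IP, 26 were also called higher in input (38.2% of the IP list, 46.4% of the input list), against 53.3% and 58.2% over all tested sites. Of the 114 called lower in IP, 67 were also called lower in input (58.8% and 77.9%), against 53.0% and 77.6% over all tested sites. At 3 of 472 ribosomal protein sites the calls in IP and in input had opposite directions (2 higher and 1 lower in IP). Over all 17376 tested sites these counts were 75 and 46.

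RPL32 +188 was called in input and not in IP. RPL32 is a single-copy large-subunit gene, and the site (YBL092W, chromosome 2, position 42062, plus strand) had 0.657 and 0.570 in IME4-KO input, against 0.129 and 0.201 in WT input, while IP gave 0.905 and 0.826 in IME4-KO and 0.852 and 0.820 in WT. The input difference was 0.448 ± 0.047 (limma, adjusted p = 0.00164), and the difference in IP less that in input was -0.419 ± 0.066 (0.0246). That second call ended on the logit scale (0.124), with replicates blocked within each genotype (0.0702) and without any 1 of 6 libraries (0.0535 to 0.0971), and it held without IME4-KO IP replicate 1 (0.044) or WT input replicate 2 (0.0364). RPS31 +212 rose by 0.358 in input. RPL5, which carries the 5S ribosomal RNA into the large subunit, had 0.867 and 0.886 at +267 in IME4-KO input, against 0.525 and 0.655 in WT input, and its call (limma, adjusted p = 0.01) ended when either IME4-KO input library was left out (0.0547 and 0.0647).

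The lower single-copy sites of the input included RPS3, whose protein lies at the entry of the messenger RNA channel. RPS3 +684 had 0.502 and 0.517 in IME4-KO input, against 0.936 and 0.953 in WT input, and 0.745 and 0.729 in IME4-KO IP, against 0.959 and 0.979 in WT IP. The difference in input was -0.435 ± 0.023 (limma, adjusted p = 0.000322). RPS31 +141 fell by 0.537 in input.

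Among paired genes, RPL24B +750 had the largest rise in input. It had 0.836 and 1 in IME4-KO input, against 0.243 and 0.381 in WT input, while IP gave 0.882 and 0.869 in IME4-KO and 0.813 and 0.788 in WT. RPS18A +1067 had 0.829 and 0.872 in IME4-KO input, against 0.391 and 0.408 in WT input. RPL7B +1780 rose by 0.527 and RPL34B +1044 by 0.485. RPL15B +238 had the largest fall, with 0.0432 and 0.0562 in IME4-KO input, against 0.847 and 0.576 in WT input. RPS16A +941 fell by 0.583 and RPL17A +890 by 0.582, and both calls ended when either IME4-KO input library was left out (adjusted p = 0.0561 to 0.0723).

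Within IME4-KO cells, the efficiency was called higher in IP than in input at 18 ribosomal protein sites (3.81%) and lower at 5 (1.06%), against 1.08% and 0.576% of all tested sites. Of the 18, 17 lay in paired genes, which held 81.8% of the tested ribosomal protein sites. RPS27B, a small-subunit protein, was cut after pulldown at sites that were hardly cut before it. RPS27B +201 (YHR021C, chromosome 8, position 144816, minus strand) had 0.740 and 0.712 in IME4-KO IP, against 0.0488 and 0.0172 in IME4-KO input, and 0.337 and 0.246 in WT IP, against 0.00545 and 0.0107 in WT input. The difference in IME4-KO was 0.693 ± 0.036 (limma, adjusted p = 0.00863). RPL33B +354 had 0.536 and 0.617 in IME4-KO IP, against 0.0505 and 0.0390 in IME4-KO input, and RPL16B +362 had 0.480 and 0.601 in IME4-KO IP, against 0.0166 and 0.0180 in IME4-KO input. These calls ended when the 4 IME4-KO libraries were fitted alone (0.114), and without IME4-KO IP replicate 1 (0.0574), IME4-KO IP replicate 2 (0.0509), IME4-KO input replicate 1 (0.155 to 0.203) or replicate 2 (0.187). The 18 higher and 5 lower calls became 0 to 9 and 0 to 2 with any 1 library left out, where a group of 1 library is assumed to vary like the others.

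Such sites were then counted, a choice made after the values were seen. Of 126 tested ribosomal protein sites below 0.1 in all 4 inputs, 8 were above 0.3 in both IME4-KO IP libraries (6.35%) and none in both WT IP libraries. Of 1926 other sites below 0.1 in all inputs, 7 (0.363%) were above 0.3 in both IME4-KO IP libraries and 9 (0.467%) in both WT IP libraries. The 8 sites lay in the second or the third part of 6 paired genes, RPL14A, RPL16B, RPL33B, RPS16A, RPS21B and RPS27B. RPS16A +329 had 0.551 and 0.412 in IME4-KO IP, against 0.168 and 0.0224 in WT IP, and RPS21B +237 had 0.328 and 0.349 in IME4-KO IP, against 0.0681 and 0.00881 in WT IP.

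The lower sites of this comparison included RPS15 +439, with 0.0405 and 0.0241 in IME4-KO IP, against 0.435 and 0.385 in IME4-KO input. The same site had 0.161 and 0.212 in WT IP, against 0.828 and 0.845 in WT input, so the IP values were the lower ones in both genotypes. RPS16B +145 (-0.467) and RPL24B +484 (-0.243) were the other named lower sites in IME4-KO, and all 3 calls ended in the fit of the 4 IME4-KO libraries alone (0.114).

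Within WT cells, 56 ribosomal protein sites were called higher in IP than in input (11.9%) and 28 lower (5.93%), against 12.4% and 8.43% of all tested sites. RPL32 +188 had 0.852 and 0.820 in WT IP, against 0.129 and 0.201 in WT input, a difference of 0.671 ± 0.047 (limma, adjusted p = 0.00124). RPL14B +934 had 0.701 and 0.784 in WT IP, against 0.131 and 0.144 in WT input. RPS18A +1067 had 0.997 and 1 in WT IP, against 0.391 and 0.408 in WT input. All 3 sites were thus cut less in WT RNA before pulldown than after it. RPS15 +439 (-0.650), RPL35B +600 (-0.558) and RPS1B +606 (-0.555) had the largest falls. Fitted on the 4 WT libraries alone, 25 sites were called higher and 12 lower.

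The interaction asks whether the genotype difference was unequal in IP and input, taking IME4-KO minus WT in IP less the same in input. It was called positive at 26 ribosomal protein sites (5.51%) and negative at 18 (3.81%), against 4.31% and 3.44% of all sites. RPS1B +606 (0.606 ± 0.065, limma, adjusted p = 0.0111) and RPL35B +600 (0.545 ± 0.046, 0.0073) had the largest positive values with RPS18B +928 (0.549 ± 0.117, 0.0489). The largest negative values were those of RPS18A +1067 (-0.628 ± 0.038, 0.0039), RPL24A +460 (-0.543 ± 0.083, 0.0232) and RPS15 +590 (-0.540 ± 0.077, 0.0193). The calls of RPS1B, RPL35B, RPS18B, RPL24A and RPS15 ended without IME4-KO input replicate 1 (0.0623 to 0.168) or replicate 2 (0.0511 to 0.126), and that of RPS18A did not. The same 5 calls ended on the logit scale (0.0565 to 0.114), and all 6 with replicates blocked within each genotype (0.0693 to 0.137). At RPS18A +1067 both WT IP values were the highest of their libraries, where spread between replicates cannot be seen.

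The 2 copies of a pair can differ so little that reads fit both, so the pairs were set beside each other. No site of either copy had exactly the same values as a site of its partner in every library that measured both (0 of 938 sites, also within 0.001). Sites equal in only some libraries were not counted there. For example, RPS8A +313 and RPS8B +314 both had 0.250 and 0.318 in WT IP and differed slightly in the other libraries. By a constant shift in offset that lines up at least 3 sites, a step added after the values were seen, 156 site pairs were matched in 32 of 59 pairs of genes, and 57 site pairs in 21 pairs of genes were tested in both copies. RPL4A and RPL4B had the most, 11 sites at identical offsets. Of the 1014 values measured in both copies at the 156 matched site pairs, 15 were equal, 8 of them at the highest value of the library. At the 57 site pairs tested in both copies the median absolute gap between copies was 0.0302 to 0.0791 in the 8 libraries. The sources used here do not say how reads from near-identical copies were assigned.

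At 15 of the 57 matched sites both copies were called in the same direction in IP (5 higher, 10 lower), at 1 in opposite directions, at 19 in 1 copy only and at 22 in neither. The IP differences of the copies correlated at r = 0.688 over the 57 site pairs and the input differences at r = 0.667, a description of sites that share libraries and come from related genes. RPL15A +238 (-0.589) and RPL15B +238 (-0.486) fell together, as did RPL4A +731 (-0.458) and RPL4B +731 (-0.411). RPS1A +605 (0.384) and RPS1B +606 (0.699), RPL26A +924 (0.613) and RPL26B +935 (0.524), RPS18A +963 (0.483) and RPS18B +928 (0.598), and RPL35A +676 (0.414) and RPL35B +600 (0.587) rose together.

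Other matched sites differed between copies. RPL24A +460 changed by -0.720 and RPL24B +460 by -0.230, both called. In RPL24B the site had 0.264 and 0.242 in IME4-KO IP, against 0.438 and 0.527 in WT IP. The opposite calls were at RPL34A +867 (-0.352, limma, adjusted p = 0.00508) and RPL34B +942 (0.313, 0.000931). RPL4A +1109 fell by 0.354, while RPL4B +1109 had a difference of 0.339 that was not called (0.0887). RPS26A +181 rose by 0.401 and its partner site RPS26B +182 had a difference of -0.015. The difference between copies was not tested. Where the matched sites of both copies were left out, 47 of 310 remaining ribosomal protein sites were called higher in IP (15.2%) and 64 lower (20.6%), against 17% and 24.3% of all tested sites.

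**Figure D5:**
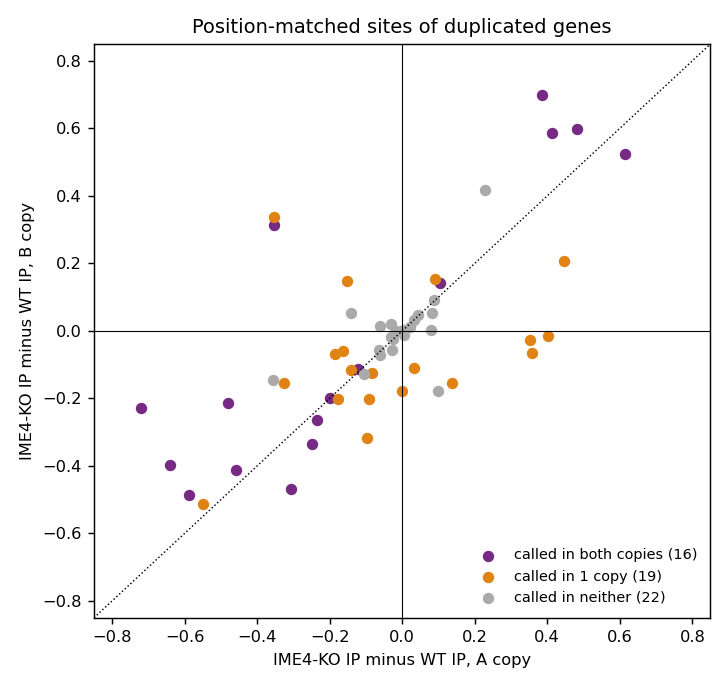
Difference in cleavage efficiency (IME4-KO IP minus WT IP) at the 57 position-matched sites tested in both copies, A copy against B copy; colours give whether limma called both, 1 or neither. Of the 16 sites called in both copies, 15 have the same sign, and 1 lies in the upper left, RPL34A +867 with RPL34B +942.

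Genes that regulate or assist ribosomal proteins were counted in the same way. Of 14 regulators of ribosomal protein gene transcription, such as RAP1, IFH1, FHL1 and SFP1, 10 had 37 tested sites, of which 7 rose and 8 fell in IME4-KO IP (18.9% and 21.6%). Of 14 chaperones of ribosomal proteins or of chains leaving the ribosome, 12 had 40 tested sites, with 3 higher and 6 lower calls (7.5% and 15%), against 17% and 24.3% of all tested sites.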

How the data were processed

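The authors deposited 1 table of normalized cleavage efficiencies, a fraction per ACA site for 8 libraries. The sources used here do not give its formula, minimum depth or genome build. Per the submitters' processing notes, which state no role, STAR 2.5.3a and bedtools 2.26.0 were used. The table held 77601 lines. At positions listed on several lines of a strand (1241 positions, 11 with a ribosomal protein line), the ribosomal protein line or else the line with most measured values was kept, which left 76330 sites. Locus tags of 5680 of 6104 models matched an R64 gene table, from which names alone were taken.

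For the 17376 sites with values in all 8 libraries, limma 3.58.1 (R 4.3.3) was fitted to the fraction itself, with 1 mean per group, 4 residual degrees of freedom and an empirical Bayes prior of 1.72 degrees of freedom. Tests were two-sided, adjusted by Benjamini and Hochberg over every tested site of the contrast (threshold 0.05). All adjusted p-values in the text are limma's. An exact two-sided test with 2 against 2 libraries goes no lower than p = 0.333. Steps were tested on simulated data.

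The genes, lists and tests were chosen with earlier results of these data known. The sites named are, by size of change among called sites whose groups do not overlap and at most 1 per gene, up to 8 higher and 6 lower in IP and 4 and 3 in input for each class, and 3 in each direction for the other contrasts (threshold only for the interaction). The stalk and ubiquitin fusion genes and further sites of genes named more than once were added. For 1 named gene no values are reported here, though it is in the counts. The labels number the replicates. Deviations of same-numbered libraries from their group means correlated at r = 0.0786 between WT IP and WT input and 0.051 between IME4-KO IP and IME4-KO input. Between the genotypes r was -0.0164 to 0.0114. These values were low, so the numbers were not taken as pairs in the main fit. Alternatives were another scale, other filters, normalization and priors, fewer libraries, the replicate number as a block, each library left out, and the removal of sites matched between copies.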

Additional observations from a re-analysis of the deposited data

Results flagged for a closer look

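The interaction was called positive at 26 ribosomal protein sites (5.51%, background 4.31%) and negative at 18 (3.81%, background 3.44%). The 3 largest in each direction are given here. At these 6 sites the genotype difference was unequal in IP and input by a test of that difference (limma, interaction). All 6 calls ended with replicates blocked within each genotype (adjusted p = 0.0693 to 0.137), and all except that of RPS18A ended on the logit scale (0.0565 to 0.114). RPS1B +606 (0.606), RPS18B +928 (0.549) and RPL35B +600 (0.545) had larger differences, IME4-KO minus WT, in IP than in input. RPS18A +1067 (-0.628), RPL24A +460 (-0.543) and RPS15 +590 (-0.540) had smaller or more negative differences in IP. At RPS18A +1067 the genotype difference was called lower in IP and higher in input, with 0.803 and 0.839 in IME4-KO IP, against 0.997 and 1 in WT IP, and 0.829 and 0.872 in IME4-KO input, against 0.391 and 0.408 in WT input. Its WT IP values were the highest of their libraries, which hides the spread between those replicates. RPS18A +1067 and RPS18B +928 lie in the 2 copies of a small-subunit gene, at positions that were not matched to each other.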

How the results depend on the processing

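The naming rule gave 74 called differences. Over 1436 alternative values, 1277 kept direction and call, 159 kept the direction without the call and none reversed, and 46 of the 74 were called in every alternative. Counts below are ribosomal protein sites called higher and lower, and they are values of limma's fit. With the replicate number as a block, IP gave 71 and 108, input 53 and 84, IP minus input in IME4-KO 2 and 0, and the interaction 15 and 10. With the block nested in genotype the lower count in IP was 73 (16 in single-copy and 57 in paired genes), input gave 31 and 42, and both IP minus input in IME4-KO and the interaction gave 0 and 0, beside 54 and 34, and 44 and 49, at an unadjusted p below 0.05. Fitted on the 4 libraries of a contrast, IP minus input gave 0 and 0 in IME4-KO (63 and 43 unadjusted) and 25 and 12 in WT. On the logit scale IP minus input in WT was called higher at 37 sites, and the interaction at 1 and 4. Sites in at least 6 libraries gave 10 higher single-copy calls in IP and 48 lower calls in WT IP minus input. A mean of at least 0.1 gave 11 and 3 in IP minus input in IME4-KO. Without sites matched between copies, an alternative chosen after seeing the data, lower calls were 64 in IP (38 in paired genes), 51 in input and 14 in WT IP minus input. With 1 library left out, higher single-copy calls in IP ranged from 4 to 7, input calls from 25 to 60 and 34 to 93, IP minus input in IME4-KO from 0 to 9 and 0 to 2 (at least 36 and 19 unadjusted), and the interaction from 0 to 25 and 1 to 13 (at least 34 and 36 unadjusted). The cause of these changes was not tested. The alternative without values shared by the copies was not run, since no site matched a site of its partner in every library that measured both.

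With 2 libraries per group and no read counts, the precision of a single value is unknown, and limma's fit assumes the same spread in the 4 groups. Between 3.23% and 9.80% of the sites of a library share its highest value, where spread between replicates cannot be seen. Tested sites are those measured in all libraries, so sites that lack a value in 1 library, most often WT IP replicate 1 (86.5% of untested ribosomal protein sites), are missing.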

Other observations

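The 22 paired genes with no tested site listed 138 sites. Of these sites 41.3% and 55.1% had a value in IME4-KO IP, against 10.1% and 39.1% in WT IP, and 97.1% and 97.1% in IME4-KO input, against 79.0% and 86.2% in WT input. In 18 of the 22 genes the other copy did have a tested site, as for RPL40B, RPP2A and RPS4A. The 2 pairs with no tested site in either copy were RPS10A with RPS10B and RPS22A with RPS22B, all small-subunit genes. Of the 620 untested ribosomal protein sites, 109 lacked a value in WT IP replicate 1 alone, more than in any other library.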
